A study of Mus musculus with 18 samples.

Results

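Mitochondrial biogenesis regulators are the nuclear genes that set how much mitochondrial RNA, DNA and respiratory protein a cell makes. The 10 genes described here were chosen by symbol: the PGC-1 coactivators Ppargc1a and Ppargc1b, the estrogen-related receptors Esrra and Esrrg, the lipid-sensing receptors Ppara and Ppard, nuclear respiratory factor 1 (Nrf1), and the mitochondrial transcription proteins Tfam, Tfb2m and Polrmt. They are 10 of the 25696 gene symbols in the files, and all 10 were listed in each of the 18 libraries. RNA-seq of polyadenylated RNA was done on mouse iWAT (inguinal white adipose tissue), the fat under the skin of the groin, and on adipocyte cultures made from the stromal-vascular fraction of that depot (the cells left once fat cells are removed). Each of 6 groups held 3 libraries: wild-type (WT) and NFIA-Tg iWAT, WT and NFIA-Tg cultures at day 0, and WT and NFIA-Tg cultures at day 7. NFIA belongs to the nuclear factor I (NFI) proteins, which bind DNA and regulate transcription, and NFIA-Tg marks mice or cells transgenic for it. The sources used here do not give the promoter of the transgene, the strain, sex or age of the mice, or whether libraries came from separate animals or cultures, so p-values measure the spread between these libraries. Confluent cells of both genotypes were induced for 48 h with 0.5 mM isobutylmethylxanthine, 125 nM indomethacin, 1 µM dexamethasone, 850 nM insulin, 1 nM T3 (thyroid hormone) and 1 µM rosiglitazone, an agonist of PPAR gamma, and then kept in insulin, T3 and rosiglitazone. Both day 7 groups therefore had received agents that act on nuclear receptors and on cyclic AMP. By its title, the series concerns what NFIA does to mitochondrial and inflammatory genes in fat cells.

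PGC-1 coactivators do not bind DNA themselves. They dock on factors such as the estrogen-related receptors, the PPARs and NRF-1 and raise transcription of nuclear genes for respiration, fat oxidation and mitochondrial upkeep, among them Tfam. In brown and beige fat, Ppargc1a is known as the cold- and cyclic AMP-responsive member, while Ppargc1b is known for maintaining mitochondria during adipocyte differentiation.

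The label of the transgene was checked first. In iWAT, Nfia read 3.73, 4.19 and 3.94 FPKM (fragments counted for a gene, scaled to its length and to library depth) in WT against 166, 99.6 and 157 FPKM in NFIA-Tg. At day 0 it stood at 6.42, 6.30 and 6.51 FPKM in WT against 11.3, 12.5 and 11.9 FPKM in NFIA-Tg-labelled cultures. At day 7 the order went against the label: 12.5, 13 and 12 FPKM in WT against 6.44, 7.32 and 7.20 FPKM in NFIA-Tg-labelled libraries. Every direction given for day 7 is therefore that of libraries as labelled. Mature adipocyte markers (12 genes, summed FPKM) ran from 32638 to 37665 in WT iWAT and from 31369 to 42270 in NFIA-Tg iWAT. At day 7 they ran from 26661 to 31008 in WT and 26727 to 30460 in the libraries labelled NFIA-Tg. The day 0 sums were 30.3 to 34.0 in WT and 42.4 to 51.7 in those labelled NFIA-Tg. Fabp4 alone carried most of the day 7 sums, at 22169 ± 2243 in WT and 25679 ± 1814 FPKM in libraries labelled NFIA-Tg (SD, n = 3 each), while Adipoq stood at 1295 ± 26.8 and 258 ± 17.9 FPKM and Cfd at 746 ± 53.1 and 251 ± 19.1 FPKM. The culture libraries held 16772594 to 28625625 recovered reads, depth is unknown for iWAT, and levels in iWAT and in cultures came from differently made tables and are not set against each other.

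The proximal promoters of 9 of the 10 genes were in the RefSeq table (GRCm38.p6), in 13 windows. The 250 bases upstream of the start site are printed for 4 genes: Ppargc1a and Ppara, which were both much higher in day 7 libraries labelled NFIA-Tg, and Tfam and Polrmt, which work in the same mitochondrial transcription complex but parted at day 7. Capitals mark matches, on either strand, to short motifs, and each sequence reads 5′ to 3′ along the gene's own strand.
Ppargc1a, chr5:51567726-51567975, minus strand: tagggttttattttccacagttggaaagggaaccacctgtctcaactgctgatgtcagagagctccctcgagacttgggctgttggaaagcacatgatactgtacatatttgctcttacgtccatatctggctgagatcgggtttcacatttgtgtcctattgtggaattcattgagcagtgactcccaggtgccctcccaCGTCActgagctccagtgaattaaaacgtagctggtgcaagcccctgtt
Ppara, chr15:85735526-85735775, plus strand: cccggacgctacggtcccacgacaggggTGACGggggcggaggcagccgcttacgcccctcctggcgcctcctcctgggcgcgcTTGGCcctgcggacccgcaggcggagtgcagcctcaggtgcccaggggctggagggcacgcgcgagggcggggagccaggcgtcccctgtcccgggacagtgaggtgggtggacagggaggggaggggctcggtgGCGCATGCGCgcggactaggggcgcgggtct
Tfam, chr10:71238045-71238294, minus strand: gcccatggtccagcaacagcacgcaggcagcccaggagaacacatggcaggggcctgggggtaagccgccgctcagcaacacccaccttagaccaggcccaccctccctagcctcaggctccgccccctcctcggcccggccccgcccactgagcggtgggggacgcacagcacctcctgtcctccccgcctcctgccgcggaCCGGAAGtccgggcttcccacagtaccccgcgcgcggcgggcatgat
Polrmt, chr10:79746582-79746831, minus strand: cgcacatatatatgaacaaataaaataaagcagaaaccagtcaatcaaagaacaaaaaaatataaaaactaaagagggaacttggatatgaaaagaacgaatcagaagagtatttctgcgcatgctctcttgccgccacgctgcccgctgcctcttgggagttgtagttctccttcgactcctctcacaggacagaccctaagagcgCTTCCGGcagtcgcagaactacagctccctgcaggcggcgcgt
In the Ppargc1a window the capitals mark the short cyclic AMP response element motif TGACG on the opposite strand at bases -49 to -45, a motif held by 17.7% of the 32817 windows in the table. The Ppara window holds the same motif at -222, the short NFI motif TTGGC at -166 (held by 41.5% of windows) and the NRF-1 core GCGCATGCG at -31, whose match on the opposite strand overlaps it by all but 1 base and which 1.44% of windows hold. Among windows not printed, the short NFI motif was also in those of Esrrg, at -240, -83 and -24. The Ppard window held it at -116, and Ppard was lower at day 7 in libraries labelled NFIA-Tg. Tfam at -47 and Polrmt at -43, on opposite strands, each hold CCGGAAG, the site of ETS factors such as GABP (6.90% of windows). The palindromic NFI site, TTGGC and GCCAA with 5 bases between them, is in 0.0366% of windows and in none of the 13 windows of these genes. The same holds for the ERR motif AAGGTCA (4.08% of windows), the shorter receptor motif AGGTCA (14.0%), the full cyclic AMP element TGACGTCA (1.55%) and the E-box CACGTG (6.02%). A match is a description of the letters and not a site shown to be bound.

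**Figure D1:**
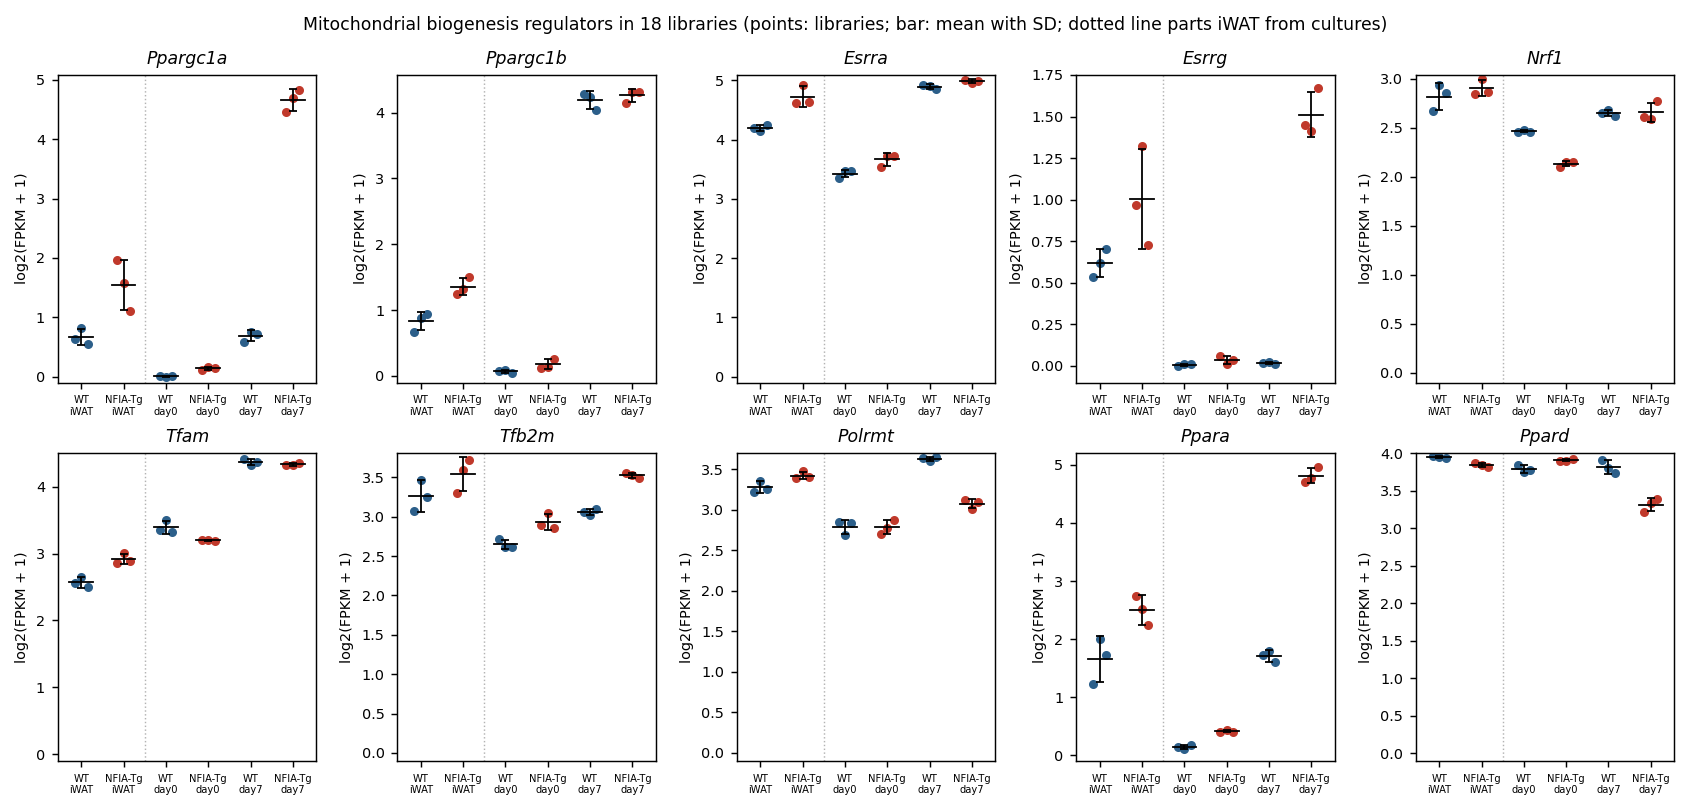
Level of each of the 10 regulators in the 18 libraries, as log2(FPKM + 1), with the groups on the horizontal axis, 1 point per library and a bar for the mean with its SD (blue, WT; red, labelled NFIA-Tg). Ppargc1a, Ppara and Esrrg are high in 1 of the 4 culture groups, day 7 labelled NFIA-Tg, while Ppargc1b, Esrra and Tfam are high in both day 7 groups.

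The coactivators came first. Ppargc1a was nearly silent before differentiation: the WT day 0 libraries read 0.0126, 0 and 0.00611 FPKM (2, 0 and 1 reads), and those labelled NFIA-Tg read 0.0801, 0.123 and 0.106 FPKM (11, 22 and 20 reads). At day 7 it reached 0.501, 0.687 and 0.655 FPKM in WT against 21.0, 24.8 and 27.5 in NFIA-Tg-labelled libraries. The day 7 groups were far apart, and the lowest library labelled NFIA-Tg lay above every other culture library. Their means, 0.614 ± 0.0992 and 24.4 ± 3.25 FPKM (SD, n = 3 each), were 39.8-fold apart, and the rate of reads was 39.5-fold higher (95% exact interval 35.0 to 44.6, counting error only). On the log2(FPKM + 1) scale, on which a fold change of a low gene is understated, the difference was 3.97 ± 0.08 (SE; limma adjusted p = 1.26e-12), the 21st largest increase among 12553 genes. With any 1 of the day 7 libraries labelled NFIA-Tg left out, Ppargc1a and Esrrg no longer passed the filter and were not tested. In iWAT, Ppargc1a read 0.556, 0.756 and 0.458 FPKM in WT against 2.89, 1.97 and 1.16 FPKM in NFIA-Tg. The groups did not overlap, the NFIA-Tg libraries were widely spread, and the log2 difference was 0.88 ± 0.23 (limma adjusted p = 0.0424). That call was lost without any 1 of the WT libraries (limma adjusted p of 0.0714 to 0.124) and without a filter on low values (0.0798), and without any 1 NFIA-Tg library the gene no longer passed the filter.

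Ppargc1b, the sister coactivator, rose with differentiation in both genotypes. It read 0.0567, 0.0622 and 0.0330 FPKM in WT against 0.0919, 0.101 and 0.201 in NFIA-Tg-labelled libraries at day 0, and 18.5, 17.9 and 15.4 FPKM in WT against 16.6, 18.9 and 19.0 in NFIA-Tg-labelled libraries at day 7. The day 7 groups overlapped, after increases of 4.12 ± 0.07 in WT and 4.08 ± 0.07 in the cultures labelled NFIA-Tg on the log2 scale (limma adjusted p = 5.46e-14 and 2.95e-14), and in WT this was the 120th largest increase. The genotype difference at day 7 was 0.07 ± 0.07 (limma adjusted p = 0.389; 0.20 and called under median-of-ratios scaling, 0.0255), with reads at a ratio of 1.04 (95% exact interval 0.999 to 1.09). In iWAT, Ppargc1b read 0.595, 0.837 and 0.926 FPKM in WT against 1.36, 1.5 and 1.82 FPKM in NFIA-Tg, groups that did not overlap. Its log2 difference of 0.52 ± 0.16 missed the threshold (limma adjusted p = 0.0697) and passed it with no trend in the variance (0.0399) and in a fit of all 18 libraries (0.000449).

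The balance of the coactivators therefore differed between day 7 groups. Ppargc1a made up 2.64, 3.69 and 4.07% of the summed PGC-1 FPKM in WT and 55.8, 56.7 and 59.2% in the libraries labelled NFIA-Tg. The sum itself was 19.0, 18.6 and 16.1 FPKM in WT against 37.7, 43.8 and 46.5 in NFIA-Tg-labelled libraries. In iWAT the share of Ppargc1a was 48.3, 47.5 and 33.1% in WT and 68.0, 56.7 and 38.9% in NFIA-Tg, and the groups overlapped. The ratio of Ppargc1a to Ppargc1b was 0.0359 ± 0.0079 in WT and 1.34 ± 0.0969 in libraries labelled NFIA-Tg at day 7 (SD, n = 3 each; two-sided exact permutation p = 0.1, the smallest that 3 against 3 allow, and 0.15 adjusted over 6 ratio tests). In iWAT the ratios were 0.777 ± 0.245 and 1.36 ± 0.744 (exact permutation p = 0.4). Ratios between genes in iWAT carry a further limit: the length listed in those tables is that of the locus (113476 bases for Ppargc1a, against 6591 in the culture tables), and the sources used here do not say which length the authors divided by.

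**Figure D2:**
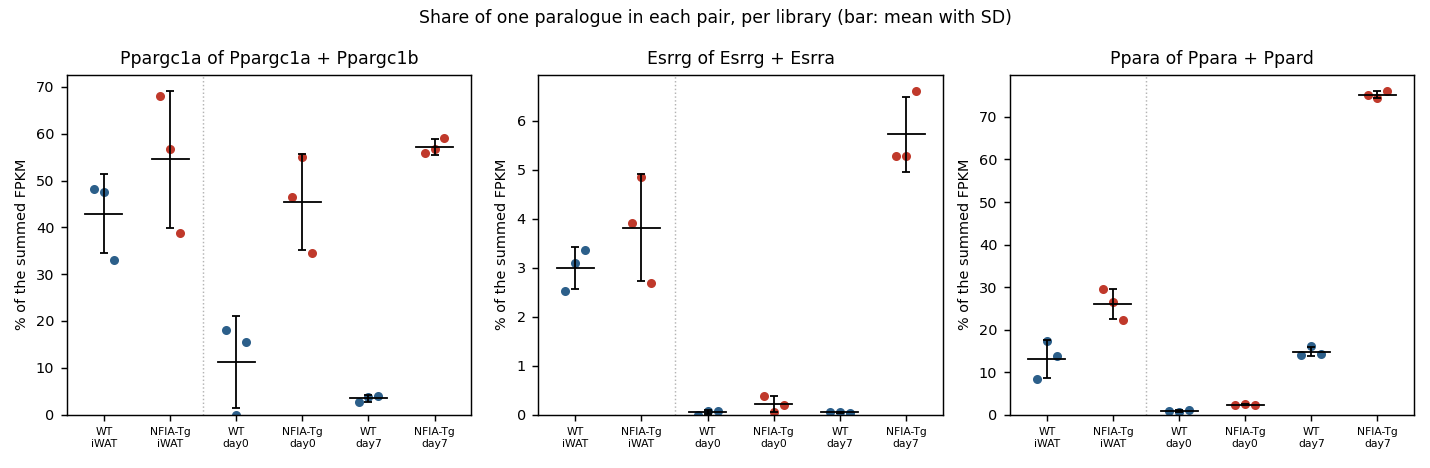
Share, in percent of the summed FPKM, of Ppargc1a among the PGC-1 genes, of Esrrg among Esrrg and Esrra, and of Ppara among Ppara and Ppard, 1 point per library with the mean and SD (blue, WT; red, labelled NFIA-Tg). At day 7 the 3 shares in libraries labelled NFIA-Tg (55.8 to 59.2%, 5.27 to 6.61% and 74.4 to 76.2%) all lie above those in WT.

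The estrogen-related receptors, orphan receptors through which PGC-1 proteins reach respiratory genes, split in the same manner as the coactivators. Esrra was the abundant member and read 9.20, 10.0 and 10.0 FPKM in WT against 10.6, 12.3 and 12.2 in NFIA-Tg-labelled libraries at day 0. By day 7 it read 29.4, 29.1 and 27.8 FPKM in WT against 31.2, 30.0 and 30.8 in NFIA-Tg-labelled libraries. Differentiation raised it by 1.47 ± 0.05 in WT and 1.32 ± 0.05 in cultures labelled NFIA-Tg (log2; limma adjusted p = 5.20e-11 and 7.80e-11). The genotype difference was 0.24 ± 0.05 at day 0 (limma adjusted p = 0.00221) and 0.09 ± 0.05 at day 7 (0.142). Under median-of-ratios scaling the day 7 difference was 0.23 and was called (limma adjusted p = 0.00109). In iWAT, Esrra read 17.2, 16.8 and 18 FPKM in WT against 23.4, 29.4 and 23.8 FPKM in NFIA-Tg, a log2 difference of 0.53 ± 0.12 (limma adjusted p = 0.0250). Leaving out any 1 WT library or the second NFIA-Tg library, the highest of them, ended that call (limma adjusted p of 0.0539 to 0.0863).

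Esrrg, the inducible family member of oxidative tissues, was at the floor in 3 of the 4 culture groups. WT libraries held 0, 1 and 1 reads at day 0 and 2, 2 and 1 reads at day 7, and those labelled NFIA-Tg held 10 reads in all at day 0. At day 7 the libraries labelled NFIA-Tg held 273, 261 and 217 reads, or 1.74, 1.67 and 2.18 FPKM. The rate of reads was 148-fold that of WT at the same day (751 against 5 reads, 95% exact interval 63.0 to 456, counting error only), and the log2 difference was 1.49 ± 0.07 (limma adjusted p = 7.45e-10). A 5-read denominator leaves that fold wide, and on the log2 scale of recovered reads (voom) the difference was 6.86. In iWAT, Esrrg read 0.447, 0.535 and 0.626 FPKM in WT against 0.953, 1.5 and 0.654 FPKM in NFIA-Tg. The groups were separated by a narrow gap, and the gene did not pass the filter of 1 FPKM in 3 libraries. The mean log2 difference was 0.387 (exact permutation p = 0.1, the smallest possible). Esrrg made up 0.0276 to 0.0541% of the summed FPKM of the pair in WT at day 7, and 5.27 to 6.61% in the libraries labelled NFIA-Tg. The ratio of Esrra to Esrrg was 2555 ± 945 in WT, with Esrrg at 1 or 2 reads a library, and 16.7 ± 2.22 in libraries labelled NFIA-Tg (exact permutation p = 0.1, adjusted 0.15), and 32.9 ± 5.07 in WT against 26.8 ± 8.62 in NFIA-Tg iWAT (exact permutation p = 0.3, adjusted 0.36).

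Ppara, the PPAR that drives hepatic and brown-fat fatty acid oxidation genes, was, like Ppargc1a and Esrrg, much higher in the day 7 libraries labelled NFIA-Tg. At day 0 it read 0.0991, 0.0785 and 0.134 FPKM in WT against 0.312, 0.353 and 0.325 in NFIA-Tg-labelled libraries, a low level with a log2 difference of 0.27 ± 0.07 (limma adjusted p = 0.00551; 0.181 in a fit of all 18 libraries). At day 7 it read 2.31, 2.48 and 2.03 FPKM in WT against 25.1, 26.5 and 30.3 in NFIA-Tg-labelled libraries. These groups lay far apart, with means of 2.27 ± 0.229 and 27.3 ± 2.67 FPKM (SD, n = 3 each), and the log2 difference of 3.11 ± 0.07 (limma adjusted p = 2.62e-12) was the 51st largest. Reads were 11.8-fold more frequent (95% exact interval 11.1 to 12.6, counting error only). In iWAT, Ppara read 1.33, 3.02 and 2.29 FPKM in WT against 5.69, 4.76 and 3.72 FPKM in NFIA-Tg. The groups did not overlap, and the log2 difference was 0.85 ± 0.22 (limma adjusted p = 0.0445). This call was the least firm of those in tissue and was lost under 9 of 15 alternatives, among them TPM scaling, no filter, and the absence of any 1 library other than the second of WT (limma adjusted p up to 0.121).

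Ppard, the broadly expressed PPAR of oxidative metabolism, moved the other way at day 7. It read 13.4, 12.5 and 12.7 FPKM in WT against 13.9, 13.9 and 14.2 in NFIA-Tg-labelled libraries at day 0, and 14.1, 13 and 12.3 FPKM in WT against 8.31, 9.09 and 9.45 FPKM in those labelled NFIA-Tg at day 7. The log2 difference at day 7 was -0.50 ± 0.06 (limma adjusted p = 2.70e-06). The change over differentiation was not called in WT (0.03 ± 0.06, limma adjusted p = 0.669), while cultures labelled NFIA-Tg fell by 0.59 ± 0.06 on the log2 scale (limma adjusted p = 3.49e-07). In iWAT, Ppard read 14.6, 14.5 and 14.2 FPKM in WT against 13.6, 13.3 and 13 FPKM in NFIA-Tg, with a log2 difference of -0.11 ± 0.09 that was not called (limma adjusted p = 0.484). Ppara thus made up 14.1, 16.0 and 14.2% of the summed FPKM of the pair in WT at day 7 and 75.2, 74.4 and 76.2% in libraries labelled NFIA-Tg. The ratio of Ppara to Ppard was 0.174 ± 0.015 in WT and 3.05 ± 0.148 in libraries labelled NFIA-Tg (exact permutation p = 0.1, adjusted 0.15), and 0.154 ± 0.0589 in WT against 0.354 ± 0.0662 in NFIA-Tg iWAT (exact permutation p = 0.1, adjusted 0.15).

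Nrf1, a DNA-binding activator of respiratory chain genes and of the mitochondrial transcription proteins, stayed between 3.30 and 7.00 FPKM in all 18 libraries. Its day 0 level was 4.51, 4.56 and 4.48 FPKM in WT against 3.30, 3.44 and 3.43 in NFIA-Tg-labelled libraries, which were lower by a log2 difference of -0.33 ± 0.05 (limma adjusted p = 0.000138). By day 7 the genotypes overlapped, at 5.28, 5.42 and 5.14 FPKM in WT against 5.12, 5.02 and 5.83 in NFIA-Tg-labelled libraries (log2 difference 0.01 ± 0.05, limma adjusted p = 0.897; 0.12 and called under median-of-ratios scaling, 0.0364). Differentiation raised it by 0.19 ± 0.05 in WT (limma adjusted p = 0.00508), a call lost under median-of-ratios scaling (0.11, adjusted p = 0.0674) and under TPM (0.04, adjusted p = 0.557), and by 0.52 ± 0.05 in cultures labelled NFIA-Tg (6.52e-07). In iWAT the log2 difference was 0.08 ± 0.12 (limma adjusted p = 0.685), and the groups overlapped, at 5.36, 6.65 and 6.22 FPKM in WT against 6.21, 7.00 and 6.27 FPKM in NFIA-Tg.

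The 3 mitochondrial transcription proteins did not move as a unit. Tfam packages mitochondrial DNA and starts its transcription, Tfb2m opens the promoter, and Polrmt is the mitochondrial RNA polymerase. Tfam read 9.22, 10.3 and 9.03 FPKM in WT against 8.19, 8.25 and 8.16 in NFIA-Tg-labelled libraries at day 0, where it was lower by a log2 difference of -0.19 ± 0.05 (limma adjusted p = 0.00324). At day 7 the groups overlapped, at 20.2, 19.1 and 19.7 FPKM in WT against 19.1, 19.0 and 19.5 in NFIA-Tg-labelled libraries, after increases of 0.98 ± 0.05 and 1.13 ± 0.05 (limma adjusted p = 5.95e-10 and 7.42e-11). Tfam in iWAT read 4.91, 5.31 and 4.64 FPKM in WT against 6.27, 7.07 and 6.38 FPKM in NFIA-Tg. These did not overlap, but the log2 difference of 0.35 ± 0.12 was not called (limma adjusted p = 0.0919; called in a fit of all 18 libraries, 0.000411).

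Tfb2m was higher in the libraries labelled NFIA-Tg at both culture days. It read 5.56, 5.10 and 5.12 FPKM in WT against 6.42, 7.25 and 6.22 in NFIA-Tg-labelled libraries at day 0, and 7.35, 7.14 and 7.54 FPKM against 10.8, 10.497 and 10.2 FPKM at day 7. The log2 differences were 0.28 ± 0.05 at day 0 and 0.46 ± 0.05 at day 7 (limma adjusted p = 0.000632 and 5.15e-06), and the groups were apart at both days. In iWAT its groups overlapped, at 7.40, 10.0 and 8.51 FPKM in WT against 8.84, 11.1 and 12.2 FPKM in NFIA-Tg (limma adjusted p = 0.275; 0.0457 in a fit of all 18 libraries).

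Polrmt did the opposite at day 7. It read 6.2, 5.45 and 6.14 FPKM in WT against 5.54, 5.83 and 6.35 in NFIA-Tg-labelled libraries at day 0, where the groups overlapped, and 11.4, 11.2 and 11.6 FPKM against 7.71, 7.09 and 7.53 FPKM at day 7. The day 7 log2 difference was -0.56 ± 0.06 (limma adjusted p = 1.38e-06), and over 23 alternatives it lay between -0.66 and -0.43, called in each. Differentiation raised Polrmt by 0.84 ± 0.06 in WT (limma adjusted p = 1.90e-08) and by 0.29 ± 0.06 in cultures labelled NFIA-Tg (0.000359), the latter not called under TPM (0.08, adjusted p = 0.282). In iWAT, Polrmt read 8.36, 9.28 and 8.56 FPKM in WT against 9.50, 10.1 and 9.59 FPKM in NFIA-Tg, a log2 difference of 0.14 ± 0.10 that was not called (limma adjusted p = 0.401).

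The calls were then counted for each comparison. A gene was called at a limma adjusted p under 0.05 over all genes tested. In iWAT, 3 of the 9 regulators tested were called higher (Ppargc1a, Ppara and Esrra), where 5.96% of all 12396 genes were, and 0 were called lower, where 5.44% were. At day 0, Esrra, Tfb2m and Ppara were called higher and Nrf1 and Tfam lower, 3 and 2 of 10, where 28.1% and 34.9% of 12553 genes were called. The day 7 calls were 4 higher (Ppargc1a, Ppara, Esrrg and Tfb2m) and 2 lower (Polrmt and Ppard) of 10, where 29.8% and 51.1% of genes were called. Under median-of-ratios scaling 9 of 10 were called at day 7, and with a pseudocount of 0.1 the count at day 0 was 7 of 10. The median log2 difference of the regulators was 0.35 in iWAT, 0.11 at day 0 and 0.08 at day 7, and that of all genes tested was 0.05, -0.03 and -0.17. Ppargc1a and Ppargc1b in iWAT, and Ppargc1a and Esrrg in the cultures, reached 1 FPKM in 3 libraries through the group labelled NFIA-Tg alone. In bulk RNA, fewer cells of a type and less RNA per cell cannot be told apart.

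**Figure D3:**
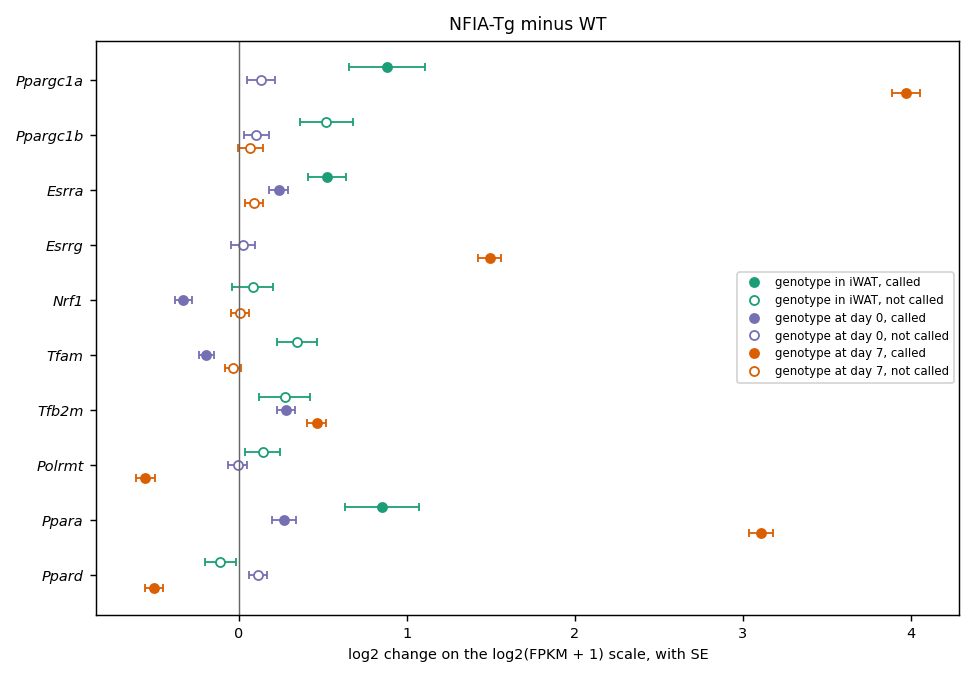
NFIA-Tg minus WT difference of each regulator on the log2(FPKM + 1) scale, with its SE, in iWAT (green), at day 0 (purple) and at day 7 (orange). Filled points were called and open points were not, and Esrrg has no iWAT point because it did not pass the filter. Ppargc1a (3.97), Ppara (3.11) and Esrrg (1.49) at day 7 lie to the right of all others, and Polrmt (-0.56) and Ppard (-0.50) at day 7 to the left.

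Some day 0 calls of genes at low levels moved with the setting. Ppargc1a at day 0 had a log2 difference of 0.13 (limma adjusted p = 0.184) with the pseudocount of 1, but 0.93 with a pseudocount of 0.1 (0.000208) and 3.73 on recovered reads with voom (0.00204), and its 53 reads against 3 gave a rate ratio of 16.4 (95% exact interval 5.31 to 81.9). Ppargc1b was called with a pseudocount of 0.1 (0.59, limma adjusted p = 0.00632) and under TPM (0.25, 0.0498). Ppara held 191 reads against 56 at day 0, a rate ratio of 3.16 (2.34 to 4.34). All 3 genes were thus far below 1 FPKM in every day 0 library, with more reads in those labelled NFIA-Tg.

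Differentiation raised most of the regulators in both genotypes. In WT cultures, 8 of 10 were called higher and 0 lower, where 46.2% and 35.4% of all genes were called. On the log2(FPKM + 1) scale the changes were 4.12 for Ppargc1b, 1.57 ± 0.07 for Ppara, 1.47 for Esrra, 0.98 for Tfam, 0.84 for Polrmt and 0.68 ± 0.08 for Ppargc1a, and Esrrg (0.01 ± 0.07) and Ppard (0.03) were not called. By read rate the order was another, since the pseudocount of 1 compresses genes near 0: Ppargc1b rose 346-fold (95% exact interval 202 to 651), Ppargc1a 94.9-fold (32.1 to 463), Ppara 21.7-fold (16.6 to 28.9) and Esrra 2.95-fold (2.78 to 3.13). In cultures labelled NFIA-Tg, 9 were called higher and 1 lower, where 45.7% and 41.5% of genes were called. Of those 9, Ppargc1a and Esrrg passed the filter through the day 7 group labelled NFIA-Tg alone, which limits this count. Here Ppargc1a (4.52 ± 0.08) and Ppara (4.41 ± 0.07) stood beside Ppargc1b (4.08), and Esrrg changed by 1.48 ± 0.07. The read rates rose 229-fold for Ppargc1a (175 to 305), 133-fold for Ppargc1b (96.8 to 188), 82.5-fold for Esrrg (44.6 to 173) and 81.1-fold for Ppara (70.3 to 94.0). The median change of the 10 genes was 0.76 in WT and 1.23 in cultures labelled NFIA-Tg, and that of all genes 0.09 and 0.05. Under TPM scaling the share of calls over all genes that were higher went from 56.6% to 45.8% in WT and from 52.4% to 42.0% in cultures labelled NFIA-Tg.

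**Figure D4:**
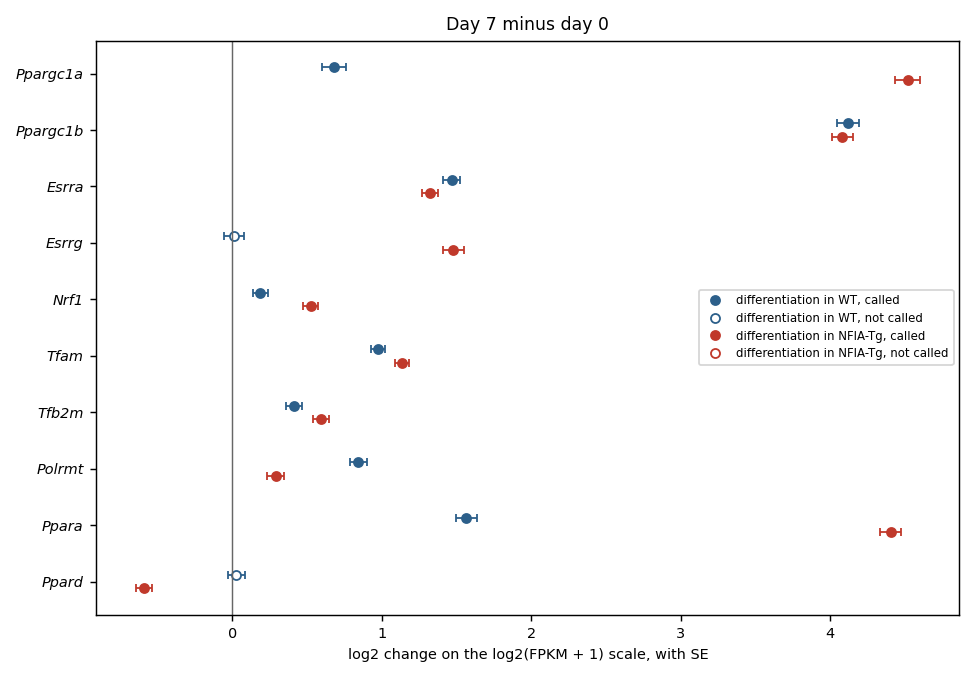
Day 7 minus day 0 change of each regulator on the log2(FPKM + 1) scale, with its SE, in WT cultures (blue) and in those labelled NFIA-Tg (red), filled where called. On this scale the points of the genotypes lie close for Ppargc1b (4.12 and 4.08), Esrra (1.47 and 1.32) and Tfam (0.98 and 1.13, a called difference) and far apart for Ppargc1a (0.68 and 4.52), Ppara (1.57 and 4.41) and Esrrg (0.01 and 1.48).

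Whether differentiation acted differently in the genotypes was tested as an interaction. Of the 10 regulators, 5 were called with a larger rise in cultures labelled NFIA-Tg and 2 with a smaller one, where 29.5% and 42.6% of genes were called. The larger rises were those of Ppargc1a (3.84 ± 0.12), Ppara (2.84 ± 0.10), Esrrg (1.47 ± 0.10), Nrf1 (0.34 ± 0.07) and Tfam (0.16 ± 0.07), with limma adjusted p of 7.44e-11, 1.99e-10, 4.12e-08, 0.00127 and 0.0470. Ppard (-0.62 ± 0.08) and Polrmt (-0.55 ± 0.08) had the smaller rise or a fall (limma adjusted p = 1.45e-05 and 5.22e-05). The calls of Ppargc1a, Esrrg and Tfam carry limits. Ppargc1a and Esrrg passed the filter through the day 7 group labelled NFIA-Tg alone, the group in which they were high. On recovered reads (voom), where the 3 WT day 0 reads set the baseline, the Ppargc1a interaction was 1.60 and not called (adjusted p = 0.135), and that of Tfam was lost under 13 of 22 alternatives (adjusted p up to 0.245).

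The genotype difference in tissue was then set against that at day 7. On the log2(FPKM + 1) scale, an offset between the differently made tables does not cancel for genes near or below 1 FPKM. Ppargc1a, Ppargc1b and Esrrg averaged 0.590, 0.786 and 0.536 FPKM in WT iWAT, so their contrasts carry that limit. Ppargc1a and Esrrg also passed the filter through libraries labelled NFIA-Tg alone. Of the 10 regulators, 5 differed in the positive direction (a higher value in iWAT) and 3 in the negative, where 35.8% and 18.5% of 13101 genes did. The difference was smaller in iWAT for Ppargc1a (-3.09 ± 0.25), Ppara (-2.26 ± 0.25) and Esrrg (-1.11 ± 0.20), with limma adjusted p of 1.38e-06, 1.65e-05 and 0.000531. Polrmt differed by 0.70 ± 0.10 (limma adjusted p = 7.95e-05), being lower at day 7 and not in tissue. The other positive calls, Ppargc1b (0.45 ± 0.15), Esrra (0.44 ± 0.12), Tfam (0.38 ± 0.10) and Ppard (0.39 ± 0.10), were all lost under median-of-ratios scaling (adjusted p of 0.104 to 0.157), which moved the median of all genes in this contrast from 0.18 to 0.00. Calls over all genes moved with it, from 65.9% to 49.8% positive.

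Genes that act on or with the regulators, or are their targets, were described from lists of known coregulators, upstream signals, partners and targets. Among 31 coregulators and upstream signals of PGC-1, 9 were called higher and 18 lower at day 7, close to the 29.8% and 51.1% of all genes, with a median log2 difference of -0.27 beside -0.17 for all genes. Sirt3, a mitochondrial deacetylase, was higher in the libraries labelled NFIA-Tg, at 6.2 ± 0.771 in WT and 38.0 ± 2.19 FPKM (SD, n = 3 each; log2 difference 2.44, limma adjusted p = 2.45e-10). Nrip1, which represses oxidative genes in fat, was lower, at 28.4 ± 0.441 in WT and 14.7 ± 0.858 FPKM (log2 difference -0.91, limma adjusted p = 4.76e-09). In iWAT 2 of 31 were called higher, near the 5.96% of all genes, and 0 lower. They were Sirt3, at 14.4 ± 0.493 in WT and 23.1 ± 1.92 FPKM in NFIA-Tg, and Prkab2, a subunit of the energy sensor AMPK, at 5.0 ± 0.475 and 10.4 ± 1.97 FPKM (limma adjusted p = 0.00727 and 0.00936).

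Of 19 partner transcription factors, 9 were called higher and 8 lower at day 7, where 29.8% and 51.1% of all genes were. Lower at day 7 were Rxra, the partner receptor with which PPARs bind DNA, at 31.5 ± 1.11 in WT and 12.2 ± 0.643 FPKM (log2 difference -1.31, limma adjusted p = 5.47e-11), the thyroid hormone receptor Thra, at 30.0 ± 0.240 and 16.0 ± 0.751 FPKM (-0.86, 6.82e-10), and the cofactor Hcfc1, at 43.0 ± 2.25 and 14.5 ± 0.426 FPKM (-1.50, 9.85e-12). Pparg, the adipogenic PPAR that rosiglitazone activates, was already higher in the libraries labelled NFIA-Tg at day 0, at 3.69 ± 0.0194 in WT and 15.2 ± 1.23 FPKM (1.79, 6.05e-11). In iWAT 2 of 19 were called higher and 0 lower, where 5.96% and 5.44% of all genes were. They were Klf15, at 15.4 ± 4.30 and 38.8 ± 13.6 FPKM, and Thrb, at 3.57 ± 0.389 and 5.70 ± 0.583 FPKM (limma adjusted p = 0.0261 and 0.0340).

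Other genes of mitochondrial DNA replication and transcription followed differentiation closely. In WT, 37 of 41 were called higher and 3 lower, where 46.2% and 35.4% of all genes were. The median was 0.70 beside 0.09 for all genes. Ptcd3, which works in mitochondrial translation, rose from 16.8 ± 0.179 to 57.3 ± 1.15 FPKM (1.71, limma adjusted p = 5.67e-13). At day 7, 22 were called higher and 10 lower in the libraries labelled NFIA-Tg, where 29.8% and 51.1% of all genes were. The median was 0.14 beside -0.17 for all genes. The lead genes were the pyrimidine nucleotide carrier Slc25a33, at 8.23 ± 0.635 and 46.1 ± 3.95 FPKM (2.35, limma adjusted p = 1.62e-10), the matrix protease Lonp1, at 123 ± 13.6 and 354 ± 13.9 FPKM (1.53, 4.09e-10), and Rrm2b, a ribonucleotide reductase subunit, at 5.32 ± 0.264 and 15.9 ± 1.73 FPKM (1.41, 1.08e-09). In iWAT, 5 of 40 were called higher and 0 lower, where 5.96% and 5.44% of all genes were. Among those higher were Mterf3, at 10.4 ± 2.08 and 20.4 ± 0.728 FPKM, and the DNA polymerase accessory subunit Polg2, at 1.71 ± 0.437 and 3.46 ± 0.0679 FPKM (limma adjusted p = 0.00637 and 0.0226). Of 24 symbols for mitochondrially encoded genes 0 matched, so transcripts of the mitochondrial genome itself were not analysed here.

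Target genes of the estrogen-related receptors and PGC-1 were mostly higher where they were called, in tissue and at day 7. In iWAT, 13 of 29 were called higher and 0 lower, where 5.96% and 5.44% of all genes were. The median log2 difference was 0.39 beside 0.05 for all genes. Sdhb, a subunit of succinate dehydrogenase, read 110 ± 9.09 in WT and 190 ± 18.7 FPKM in NFIA-Tg, and the muscle and brown-fat cytochrome oxidase subunit Cox8b 44.4 ± 23.7 and 758 ± 162 FPKM (limma adjusted p = 0.00548 and 0.000884). At day 7, 22 were called higher and 4 lower, where 29.8% and 51.1% of all genes were. The median was 0.38 beside -0.17 for all genes. Uqcrc2 of complex III stood at 192 ± 2.17 in WT and 372 ± 13 FPKM (0.95, limma adjusted p = 2.11e-10). Differentiation in WT raised 27 of 29 and lowered 0 (median 2.01), where 46.2% and 35.4% of all genes were called. Citrate synthase (Cs) went from 68.6 ± 1.35 to 538 ± 13.6 FPKM (2.95, limma adjusted p = 6.83e-15). At day 0, 9 were called higher and 9 lower, near the 28.1% and 34.9% of all genes.

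Among 31 PPAR target genes, 16 were called higher and 10 lower in the libraries labelled NFIA-Tg at day 7. Of all genes, 29.8% were called higher and 51.1% lower. The median log2 difference was 0.18 for the list beside -0.17 for all genes. Fgf21, a secreted hormone, read 31.3 ± 1.93 in WT and 146 ± 6.18 FPKM (log2 difference 2.19, limma adjusted p = 9.66e-12) and the acyl-CoA thioesterase Acot2 15.9 ± 0.639 and 65.2 ± 4.89 FPKM (1.97, 8.81e-12). Slc27a1, a fatty acid transporter, went the other way, at 130 ± 6.77 in WT and 14.1 ± 0.536 FPKM (-3.12, 2.82e-13). In iWAT, 9 of 31 were called higher and 1 lower, where 5.96% and 5.44% of all genes were. Ucp3 stood at 31.6 ± 3.0 and 89.8 ± 14.6 FPKM and the mitochondrial carnitine enzyme Cpt2 at 60.6 ± 10.2 and 112 ± 18.6 FPKM (limma adjusted p = 0.000884 and 0.0132). These lists were chosen with earlier results of these data known, and their counts describe the lists without testing them.

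Markers of other cells and states moved with the same groups. Thermogenic adipocyte markers summed to 114 to 132 FPKM in WT and 1070 to 1121 FPKM in libraries labelled NFIA-Tg at day 7 (6 of 6 tested called higher), and to 41.1 to 112 and 744 to 1059 FPKM in iWAT (3 of 5), with Zic1 at 0 in these 4 groups. Cox8b, also in the list of ERR and PGC-1 targets, carried most of the NFIA-Tg iWAT sum (758 ± 162 FPKM). Elovl3 carried most of the WT day 7 sum (109 ± 4.01 FPKM). In the cultures, Ucp1 and Cidea passed the filter through the day 7 group labelled NFIA-Tg alone, which limits their calls. Dio2 and Zic1 did not pass it and were not tested there. In iWAT the genotypes overlapped for Ucp1, at 0.767 to 1.87 FPKM in WT and 1.25 to 4.08 FPKM in NFIA-Tg. They also overlapped for Otop1 and Elovl3, and mean Elovl3 was lower in NFIA-Tg (0.148 FPKM) than in WT (0.572 FPKM). Preadipocyte and fibroblast markers summed to 1575 to 1766 FPKM in WT and 302 to 405 FPKM in libraries labelled NFIA-Tg at day 7, where 10 of 11 were called lower and 1 higher. Dividing-cell markers summed to 699 to 733 and 368 to 397 FPKM at day 7 (7 of 8 called lower) and to 363 to 367 and 149 to 158 FPKM at day 0 (8 of 8 lower). The mature adipocyte sums of the day 7 groups overlapped, and 5 of 11 such markers were called lower and 2 higher. Those of day 0 did not overlap, at 30.3 to 34.0 FPKM in WT and 42.4 to 51.7 FPKM in libraries labelled NFIA-Tg. There 5 of 11 were called higher and 0 lower. In iWAT, endothelial markers summed to 464 to 551 FPKM in WT and 325 to 380 FPKM in NFIA-Tg (4 of 8 lower), and skeletal muscle markers to 170 to 225 and 90.3 to 122 FPKM, with 1 of 4 called higher and 1 lower. Of all genes, 29.8% were called higher and 51.1% lower at day 7, and 28.1% and 34.9% at day 0. In iWAT the shares were 5.96% and 5.44%. The part of these markers in the regulators' differences was not tested.

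The nearest patterns over the 12 culture libraries were named for the 6 regulators whose log2(FPKM + 1) spanned at least 1, as the other tested genes with the highest Pearson r among 7574 that did the same. They were Rdh16 and Usp8 for Ppargc1a, Abcg1 and Adora1 for Ppargc1b, Acaa2 and Pex11a for Esrra, Sucnr1 and Shtn1 for Esrrg, Pop5 and Chchd4 for Tfam, and Ttc41 and Slc46a3 for Ppara, with r from 0.997 to 1.000. These 12 libraries form 4 groups, so r mostly reflects the order of 4 group means. Within the day 7 libraries labelled NFIA-Tg, Esrra ranked above 90.1% of 24338 symbols, Ppara above 89.0%, Ppargc1a above 87.8% and Esrrg above 58.1%, against 88.9, 58.3, 51.0 and 33.6% in WT at day 7.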

How the data were processed

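The 18 libraries were grouped by the sample labels. Per the submitters' processing notes, STAR 2.7.8a, StringTie 2.1.1 and mouse build mm9 were used, without their roles, and libraries came from a stranded mRNA kit per the labels' protocols. The sources used here state neither annotation nor counting rule. Each deposited file holds, per the file headers, an FPKM value and a length for every gene. In iWAT, 410 entries sharing 180 symbols were summed, none a regulator. In the cultures 100% of FPKM times length were whole multiples of 1 step (tolerance 0.01), which gave reads. In iWAT 1.83 to 2.13% were, so depth there is unknown.

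Tests used limma 3.58.1 (R 4.3.3) with a variance trend on log2(FPKM + 1), for genes of at least 1 FPKM in at least 3 fitted libraries, two-sided, Benjamini-Hochberg adjusted over all genes tested. iWAT was fitted alone (4 residual degrees of freedom), the 12 cultures together (8), and the contrast of iWAT with day 7 on 12 libraries. Exact tests used SciPy 1.17.1 (Python 3.11.15). The fit was tested on simulated data. Alternatives were other pseudocounts, filters, scalings, variance models, voom on reads, a replicate block and leaving out each library. The regulators and lists were chosen with earlier results of these data known. Genes named are the 10 regulators, Nfia, up to 3 called genes of smallest adjusted p per list and comparison, and the 2 nearest patterns per regulator; some are not reported here. Promoter sequences are RefSeq's (GRCm38.p6), another build than that of the files.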

Additional observations from a re-analysis of the deposited data

Results flagged for a closer look

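Effects under the same contrast differed between groups for 15 tests of the difference itself (limma, adjusted over all genes tested). Differentiation changed 7 regulators differently in cultures labelled NFIA-Tg and in WT. The log2 difference between genotypes was 3.84 for Ppargc1a, 2.84 for Ppara, 1.47 for Esrrg, 0.34 for Nrf1 and 0.16 for Tfam. For Ppard it was -0.62 and for Polrmt -0.55. The call of Ppargc1a was lost on recovered reads (voom, 1.60, adjusted p = 0.135) and that of Tfam under 13 of 22 alternatives. Ppargc1a and Esrrg passed the filter through libraries labelled NFIA-Tg alone. The genotype difference in iWAT was unlike that at day 7 for 8 regulators. It was smaller in iWAT for Ppargc1a (-3.09), Ppara (-2.26) and Esrrg (-1.11). It was above the day 7 difference for Polrmt (0.70), Ppargc1b (0.45), Esrra (0.44), Ppard (0.39) and Tfam (0.38), the last 4 of which were lost under median-of-ratios scaling. The causes were not tested. Tissue and cultures differ in cell makeup, in how their tables were made and in how Nfia read against the label at day 7.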

How the results depend on the processing

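Of 1429 values of the regulators under alternatives, 1369 kept their side of the threshold, 42 lost and 18 gained a call, and 0 called values reversed direction. In iWAT, 1413 genes and 3 regulators were called. The counts were 934 and 1 with no filter and 5141 and 7 in a fit of all 18 libraries, and 1 regulator was called with a filter at FPKM 5. Leaving out 1 library gave 617 to 1262 genes and 0 to 1 regulators in iWAT, and 4 to 7 regulators (7 in full) for genotype by differentiation. Median-of-ratios scaling left 4 of 8 regulators in the contrast of iWAT with day 7. The interaction count fell to 4 without any 1 day 7 library labelled NFIA-Tg, where Ppargc1a and Esrrg no longer passed the filter and Tfam lost its call. The cause of the other shifts was not tested. That scaling moved the median log2 difference of all genes at day 7 from -0.17 to -0.06 and TPM moved it to -0.25. TPM moved the higher share of differentiation calls from 56.6 to 45.8% in WT and from 52.4 to 42.0% in cultures labelled NFIA-Tg. With a replicate block, 1282 genes and 2 regulators (not Ppara, adjusted p = 0.0656) were called in iWAT and 6 regulators, without Tfam, for genotype by differentiation. Deviations of same-numbered libraries correlated at 0.00719 to 0.115 in iWAT and at -0.108 to 0.156 in the cultures. Of these pairs, 2 of 3 in iWAT and 1 of 18 in the cultures were over 0.1. The labels do not say that the numbers pair samples, so the main fits held no block. Depth limits Ppargc1a, Ppargc1b and Esrrg at day 0.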

Other observations

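Other nuclear receptors, the protein family to which the PPARs and estrogen-related receptors belong, were described from a list. Of 17 tested at day 7, 10 were called lower and 5 higher in the libraries labelled NFIA-Tg, close to the 51.1% and 29.8% of all genes, with a median log2 difference of -0.35 beside -0.17. The retinoic acid receptor Rara stood at 7.21 ± 0.364 in WT and 2.51 ± 0.288 FPKM (SD, n = 3 each; -1.23, limma adjusted p = 4.82e-09). The progesterone receptor Pgr was already lower at day 0, at 7.43 ± 0.614 in WT and 0.289 ± 0.0592 FPKM (-2.71, limma adjusted p = 2.12e-11). Nr1h3, which encodes the oxysterol receptor LXR alpha, was higher at day 0, at 1.84 ± 0.218 and 7.72 ± 0.399 FPKM (1.62, 1.34e-09). In iWAT 2 of 15 were called, both higher, where 5.96% of all genes were called higher. They were the clock repressor Nr1d1, at 75.5 ± 4.69 and 128 ± 22.0 FPKM, and Rora, at 3.80 ± 0.328 and 6.10 ± 0.414 FPKM (limma adjusted p = 0.0129 and 0.0235).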
